A study of Mus musculus with 22 samples.

Results

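Hoxb1, Hoxd1, Hoxa2 and Hoxb2 are the 4 genes described here, out of 55141 genes in the tables. They belong to Hox paralog groups 1 and 2 and were selected by gene symbol. The rule holds no measured value, but the genes were proposed with earlier results of these data known. All 4 symbols were found, and each stood for a single gene. The RNA-seq series compared wild-type mouse embryonic stem (mES) cells with a line labelled Hox-/-, which the series title describes as lacking all Hox function and whose libraries carry the name BADC. Both genotypes were grown as mES cells (2 libraries each), as endoderm differentiation cultures collected at 120 h (3 each) and as Activin A gastruloids at 96 h and 120 h (2 per time), and wild-type cells also as Chiron gastruloids at 96 h and 120 h (2 per time). Gastruloids are balls of cultured stem cells used as a model of the gastrulating embryo. The mES medium held LIF at 100 ng/ml with CHIR99021, which inhibits GSK-3, at 3 µM and PD0325901, which inhibits MEK1/2, at 1 µM. Endoderm cultures received 100 ng/ml Activin A, a TGF-beta family ligand, with 3 µM CHIR99021 at 24 h and 72 h, and the gastruloids' doses are not given in the sources used here. The gastruloid and endoderm libraries are labelled as mixed cells. The labels name no clones, deleted intervals, animals or separate cultures. Genotype and cell line therefore cannot be told apart, and p-values measure the spread between libraries, which may be technical.

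Hox genes encode homeodomain transcription factors that stand in 4 clusters and give cells position along the head-to-tail axis. The members at one end of each cluster, paralog groups 1 and 2, are the first to be switched on in the gastrulating embryo and are known for patterning the hindbrain and the neural crest of the pharyngeal arches. Hoxb1 is known for the identity of a single hindbrain segment, the fourth rhombomere, where it maintains its own transcription together with the cofactors Pbx and Meis or Pknox. Hoxa2 is the Hox gene expressed furthest forward in the hindbrain and is required for the skeleton of the second pharyngeal arch, and Hoxb2 is expressed from the third rhombomere backwards. Hoxd1 is the group 1 gene of the Hoxd cluster. Retinoic acid is a well known inducer of these genes in stem cells and in the embryo.

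Each of the 4 genes has 2 exons in the annotation (GENCODE vM21, the mouse build mm10, also named GRCm38). Hoxb1 lies on chromosome 11 from 96365752 to 96368256 on the plus strand and overlaps no other gene. Hoxb2 lies on the same chromosome from 96351631 to 96354012 on the plus strand and overlaps the antisense gene Hoxb3os. Hoxd1 lies on chromosome 2 from 74762980 to 74765142 on the plus strand, with the antisense gene Haglr starting 84 bases away. Hoxa2 lies on chromosome 6 from 52162417 to 52164831 on the minus strand, overlaps the same-strand gene Gm28308 and has Hotairm1 at a distance of 298 bases. Whether counting used strand is not given in the sources used here, so the values of Hoxb2 and Hoxa2 may hold reads of the genes they overlap.

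The stretches just upstream of the start sites are shown for the 3 members with an entry in the RefSeq promoter table (GRCm38.p6), because the 4 genes moved differently and these are the sequences next to which transcription starts. Capitals mark matches, on either strand, to TGATNNAT, the core bound by Pbx with an anterior Hox protein, and to TGACAG, the core bound by Meis and Pknox. The Hoxb1 stretch is chr11:96365508-96365745 (plus strand), that of Hoxd1 is chr2:74762730-74762979 (plus strand) and that of Hoxa2 is chr6:52164832-52165081 (minus strand), each written 5′ to 3′ along its gene.
Hoxb1: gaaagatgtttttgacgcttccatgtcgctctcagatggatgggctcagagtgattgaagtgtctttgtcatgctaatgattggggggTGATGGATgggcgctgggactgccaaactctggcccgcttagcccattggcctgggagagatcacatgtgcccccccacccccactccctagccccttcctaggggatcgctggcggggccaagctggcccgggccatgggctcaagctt
Hoxd1: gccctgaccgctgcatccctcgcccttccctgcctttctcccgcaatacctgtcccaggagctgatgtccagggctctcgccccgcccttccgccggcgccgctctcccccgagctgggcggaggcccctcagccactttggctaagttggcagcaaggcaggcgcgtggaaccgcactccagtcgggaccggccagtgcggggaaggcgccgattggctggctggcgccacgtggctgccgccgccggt
Hoxa2: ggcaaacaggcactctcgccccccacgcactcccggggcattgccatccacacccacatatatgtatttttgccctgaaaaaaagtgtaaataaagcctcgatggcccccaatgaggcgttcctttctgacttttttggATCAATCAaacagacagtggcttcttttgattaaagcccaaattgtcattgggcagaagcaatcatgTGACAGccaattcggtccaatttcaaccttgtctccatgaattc
The 238 bases of Hoxb1 held 1 Pbx-Hox match, TGATGGAT, starting 156 bases upstream of the annotated gene start. The 250 bases of Hoxa2 held 1 Pbx-Hox match on the opposite strand, ATCAATCA, 111 bases upstream, and 1 Meis-Pknox match, TGACAG, 44 bases upstream. The 250 bases of Hoxd1 held 0 matches to either. Among 32851 mouse promoters of 250 bases, 7.68% held a Pbx-Hox match and 15.9% a Meis-Pknox match, and over 238 bases the shares were 7.43% and 15.2%. Direct repeats of AGGTCA spaced by 2 or by 5 bases, an exact form of the sites bound by retinoic acid receptors, were searched on both strands. They matched in none of the 3 stretches, and each matched in 0.00913% of promoters of 250 bases. With matches that rare, their absence here cannot tell whether the receptors bind. A match is a description of letters and not a measured binding site.

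Library totals ran from 9108085 to 28819301 counts, and the gastruloid libraries of 96 h (at least 14953662) were all deeper than those of 120 h (at most 11930416), so time and depth cannot be told apart. The labels give no batch. Pairs of replicates all differed beyond sampling noise (chi-square per degree of freedom 1.37 to 10.3). The labelled cell states were checked against markers. In mES cells the summed level of 10 pluripotency markers was 7675 to 8037 CPM, which are counts scaled to the library total. In endoderm cultures the sum of 13 endoderm markers was 1026 to 1041 CPM in wild type and 583 to 634 in Hox-/-, against 27.3 to 42.2 in mES cells, and no endoderm marker was at 0. The Hox-/- label was checked by the 4 genes themselves, which are given below in every library. A count of 0 allows up to 3 counts, which corresponded to 0.104 to 0.329 CPM across libraries.

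Hoxb1 was the most abundant of the 4 genes per length in wild-type endoderm and 96 h gastruloids, and it stood about as high with Activin A as with Chiron at 96 h. Its level was 297 and 319.8 CPM in Chiron gastruloids at 96 h and 307 and 289.6 CPM with Activin A at the same time. By 120 h it was 91.6 and 105 CPM with Chiron and 81.0 and 77.6 CPM with Activin A. Wild-type endoderm libraries held 48.8, 45.4 and 53.5 CPM, and wild-type mES libraries held 2 and 1 counts. The 4 libraries of 96 h were all above the 4 of 120 h, which were all above endoderm, and at 96 h the libraries of the treatments overlapped. From the highest mean (308 ± 16.1 CPM, SD, n = 2, Chiron at 96 h) to the next (298 ± 12.03, Activin A at 96 h) the difference was within the spread, and each later step down to endoderm (49.2 ± 4.04, n = 3) was beyond it.

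Hoxd1 had another order, with Activin A gastruloids at 96 h the lowest of the differentiated wild-type groups. It measured 21.0 and 16.9 CPM in Chiron gastruloids at 96 h and 10.9 and 10.50 CPM at 120 h. In Activin A gastruloids it measured 4.0 and 4.07 CPM at 96 h and 14.9 and 14.8 CPM at 120 h. Endoderm held 6.25, 4.95 and 7.0 CPM, and mES libraries held 1 and 0 counts. None of these groups overlapped with its neighbour in the order Chiron 96 h, Activin A 120 h, Chiron 120 h, endoderm, Activin A 96 h, and each step exceeded the combined SD.

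Hoxa2 was higher in every Chiron gastruloid library than in any Activin A one. It measured 39.1 and 35.3 CPM with Chiron at 96 h and 35.3 and 38.6 CPM at 120 h, and these libraries overlapped. With Activin A it measured 24.1 and 22.6 CPM at 96 h and 28.2 and 29.8 CPM at 120 h. Endoderm held 3.65, 3.03 and 4.01 CPM, which was 9.59% of the highest group mean, and both mES libraries held 0 counts.

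Hoxb2 followed the order of Hoxb1 with steps of other sizes. It measured 109 and 117 CPM with Chiron at 96 h, 90.2 and 86.0 CPM with Activin A at 96 h, 75.0 and 74.8 CPM with Chiron at 120 h and 70.0 and 68.0 CPM with Activin A at 120 h. The libraries of these 4 groups did not overlap, and each step exceeded the combined SD. The step from Activin A at 96 h to Chiron at 120 h was smaller than that of Hoxb1 (13.2 against 199.8 CPM). So was the step between treatments at 120 h (5.88 against 19.0 CPM). Larger than for Hoxb1 were the steps between treatments at 96 h (24.7 against 10.3 CPM) and down to endoderm (49.7 against 30.1 CPM). Endoderm held 15.6, 20.1 and 22.1 CPM, and both mES libraries held 0 counts.

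**Figure D1:**
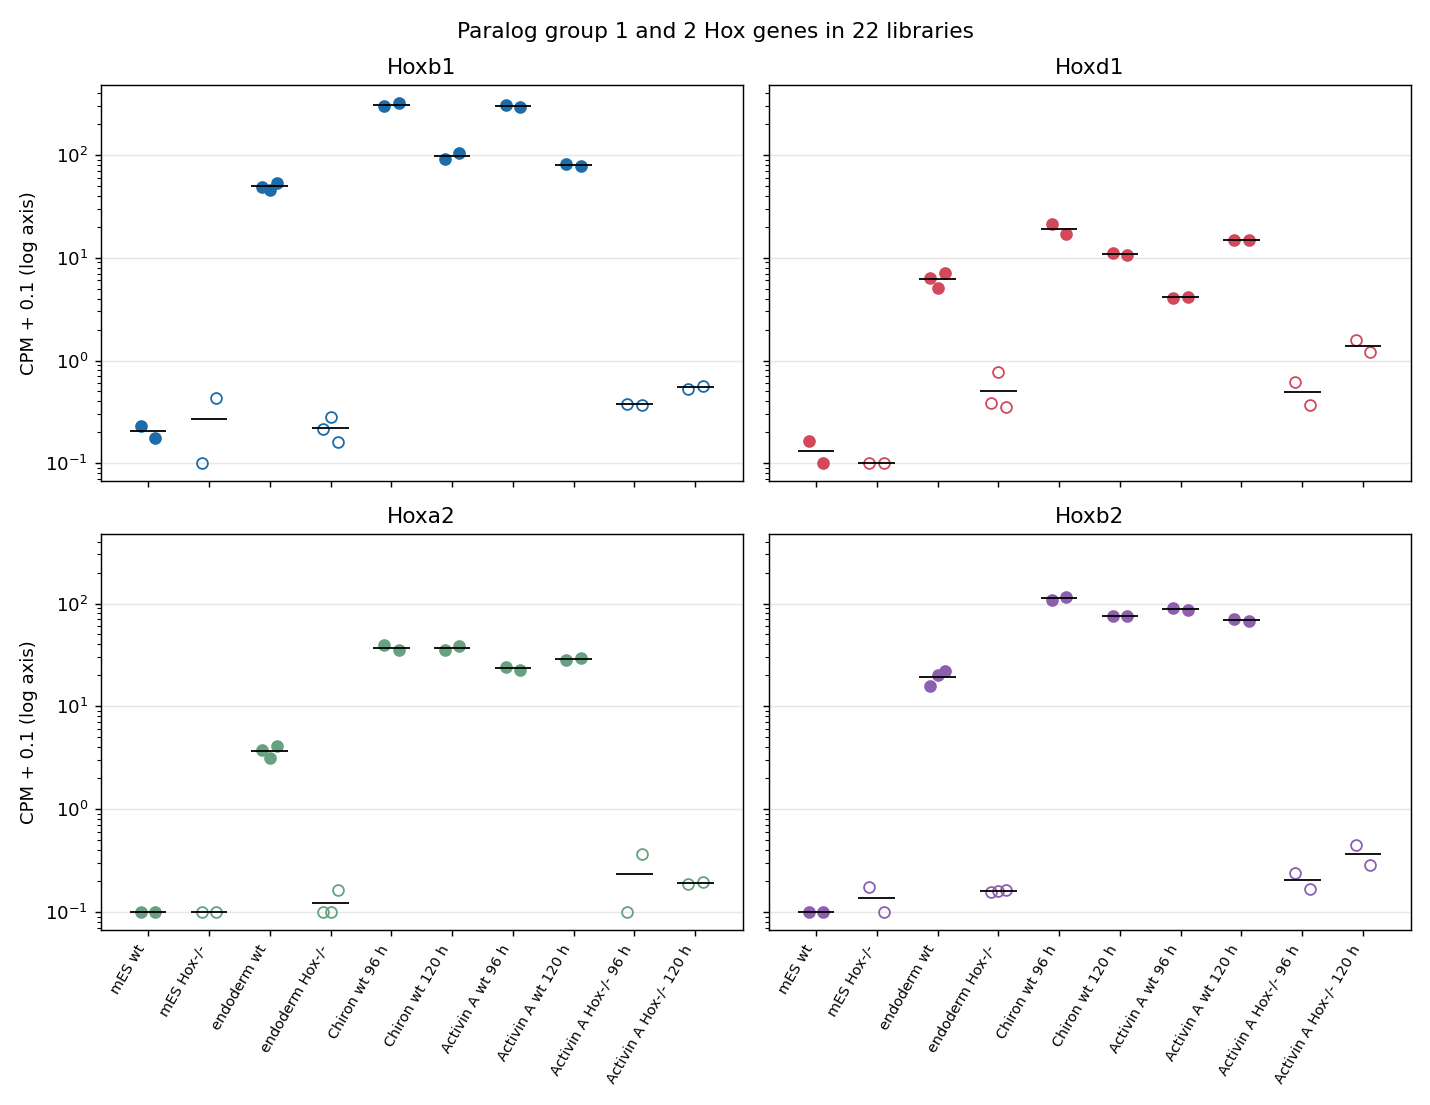
Level of each gene in 22 libraries, as CPM plus 0.1 on a log axis. Points are libraries (filled, wild type; open, Hox-/-) and bars are group means; wild-type endoderm and gastruloid libraries stand above all Hox-/- and mES libraries for each gene, and Hoxd1 is lowest among the differentiated wild-type groups in Activin A gastruloids at 96 h.

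Compared per length, as FPKM, the order of the genes changed with time. In Activin A gastruloids at 96 h Hoxb1 stood at 134 ± 5.61 FPKM (SD, n = 2), Hoxb2 at 52.9 ± 2.09, Hoxa2 at 12.8 ± 0.661 and Hoxd1 at 2.10 ± 0.00457. At 120 h Hoxb2 stood highest at 47.2 ± 1.87 FPKM, above Hoxb1 at 32.5 ± 0.430, Hoxa2 at 16.2 ± 0.106 and Hoxd1 at 7.49 ± 0.147. The ratio of Hoxb1 to Hoxb2 FPKM was 2.55 and 2.54 with Activin A at 96 h and 1.77 and 1.76 with Chiron at 96 h, and it was 0.677, 0.702, 0.729 and 0.875 in the 4 libraries of 120 h. By FPKM, Hoxb1 was thus above Hoxb2 in every wild-type gastruloid library of 96 h and below it in every one of 120 h. By CPM, Hoxb1 was above Hoxb2 in the wild-type gastruloid libraries of 120 h too, so the order there depended on the measure. In wild-type Activin A gastruloids a count carried 0.0187 FPKM for Hoxb1 and 0.0249 for Hoxb2 at 96 h. At 120 h a count carried 0.0446 and 0.0744 FPKM. The part of the FPKM scaling in the reversal was not tested. The ratio of Hoxb1 to Hoxd1 FPKM was 65.9 and 62.3 with Activin A at 96 h and 4.32 and 4.36 at 120 h. Endoderm cultures, although collected at 120 h, had Hoxb1 above Hoxb2 in all 3 libraries (ratios 2.53, 1.65 and 1.64), and they alone among the differentiated wild-type groups had Hoxa2 below Hoxd1, with ratios of 0.608 to 0.689 against 1.89 or more in every gastruloid library. These ratios are descriptions without a test, and FPKM tables of endoderm and gastruloids were made separately.

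In mES cells the 4 genes were near 0 in both genotypes, with 0 to 4 counts in any library, and none passed the low-count filter. The genotype comparison of mES cells, in which 23.2% of 13631 tested genes were called (Benjamini-Hochberg adjusted p under 0.05 in the edgeR quasi-likelihood test), therefore gives no result for them. Between wild-type mES cells and wild-type endoderm all 4 rose, where 41.6% of 16251 tested genes were called higher and 38.3% lower (79.9% in either direction). The mES and endoderm counts came from separate deposited tables, so table and culture cannot be told apart. The pooled counts gave a 457-fold difference for Hoxb1 (exact interval 156 to 2220, from 3 mES counts). For Hoxd1 they gave a 168-fold difference (29.9 to 6670, from 1 count). These intervals cover counting error only and not the spread between libraries. Hoxa2 was at least 16.5-fold and Hoxb2 at least 89.1-fold higher, both computed against a floor of 3 counts per library. The edgeR adjusted p was 1.73e-16 for Hoxb1, 1.41e-09 for Hoxd1, 2.12e-08 for Hoxa2 and 1.71e-13 for Hoxb2. In Hox-/- cells the same step called Hoxd1 alone (20 counts in endoderm against 0 in mES cells, at least 1.7-fold, edgeR adjusted p = 0.00237; 42.7% of genes were called higher, 37.9% lower and 80.6% in either direction), and the other members had 1 to 6 counts over the 3 endoderm libraries. Of the 34 genes of paralog groups 3 to 13, 32 rose in wild type and 2 in Hox-/-.

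Hox-/- cultures held few counts of any of the 4 genes. In endoderm the 3 Hox-/- libraries held 2, 3 and 1 counts of Hoxb1, 5, 11 and 4 of Hoxd1, 0, 0 and 1 of Hoxa2 and 1, 1 and 1 of Hoxb2. In Activin A gastruloids at 96 h the 2 libraries held 6 and 4 counts of Hoxb1, 11 and 4 of Hoxd1, 0 and 4 of Hoxa2 and 3 and 1 of Hoxb2. At 120 h they held 5 and 5 counts of Hoxb1, 17 and 12 of Hoxd1, 1 and 1 of Hoxa2 and 4 and 2 of Hoxb2. In these 3 comparisons no Hox-/- library reached any wild-type library for any of the 4 genes.

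All 4 genes were lower in Hox-/- endoderm, where 23.1% of 14975 tested genes were called lower and 46.2% in either direction. All 4 were also lower in Hox-/- Activin A gastruloids at 96 h (16.7% of 16831 genes called lower) and at 120 h (25.5% called lower and 50.4% in either direction). The log2 difference of Hoxb1 was -8.57 (SE 0.189) in endoderm, -9.99 (SE 0.108) at 96 h and -7.33 (SE 0.164) at 120 h. For Hoxb2 it was -8.13 (SE 0.299), -9.49 (SE 0.157) and -7.85 (SE 0.187), and for Hoxa2 -6.97 (SE 0.512), -7.58 (SE 0.2498) and -8.10 (SE 0.317). Hoxd1 showed smaller differences of -3.87 (SE 0.298), -3.21 (SE 0.294) and -3.40 (SE 0.228). The largest of these adjusted p-values in edgeR was 1.3e-07, for Hoxd1 in endoderm. Of the genes of paralog groups 3 to 13, 32 of 33 tested fell in endoderm, 21 of 30 at 96 h and 28 of 30 at 120 h. The other 2 genes called in gastruloids were higher in Hox-/- at both times, Hoxa13 by 6.92 (SE 0.1625) and 6.66 (SE 0.293) and Hoxd13 by 1.58 (SE 0.349) and 3.01 (SE 0.411). In endoderm Hoxa13 was the gene that did not pass the test (-0.01, SE 0.146). In bulk libraries fewer cells of a type and less RNA per cell cannot be told apart, here and in the comparisons that follow.

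The counts left in Hox-/- cells were largest for Hoxd1 relative to wild type. Its pooled Hox-/- counts amounted to 6.68% of wild type in endoderm (exact 95% interval 4.01 to 10.5), 10.2% at 96 h (5.62 to 17.3) and 8.75% at 120 h (5.75 to 12.9). For Hoxb1, Hoxa2 and Hoxb2 the share was at most 0.567%, for Hoxa2 in endoderm (0.0143 to 3.21), and at least 0.0925%, for Hoxb1 at 96 h (0.0443 to 0.170). In FPKM the Hoxd1 share was lower, at 1.91%, 2.02% and 0.93%. A Hoxd1 count carried 0.00967 FPKM in Hox-/- endoderm and 0.0408 in wild type, and at 120 h 0.0048 against 0.0549, while for Hoxb1 and Hoxb2 the share by FPKM lay within the interval of the share by counts in all 3 comparisons. Where along Hoxd1 the remaining reads lie was not tested, and the intervals cover counting error only.

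**Figure D2:**
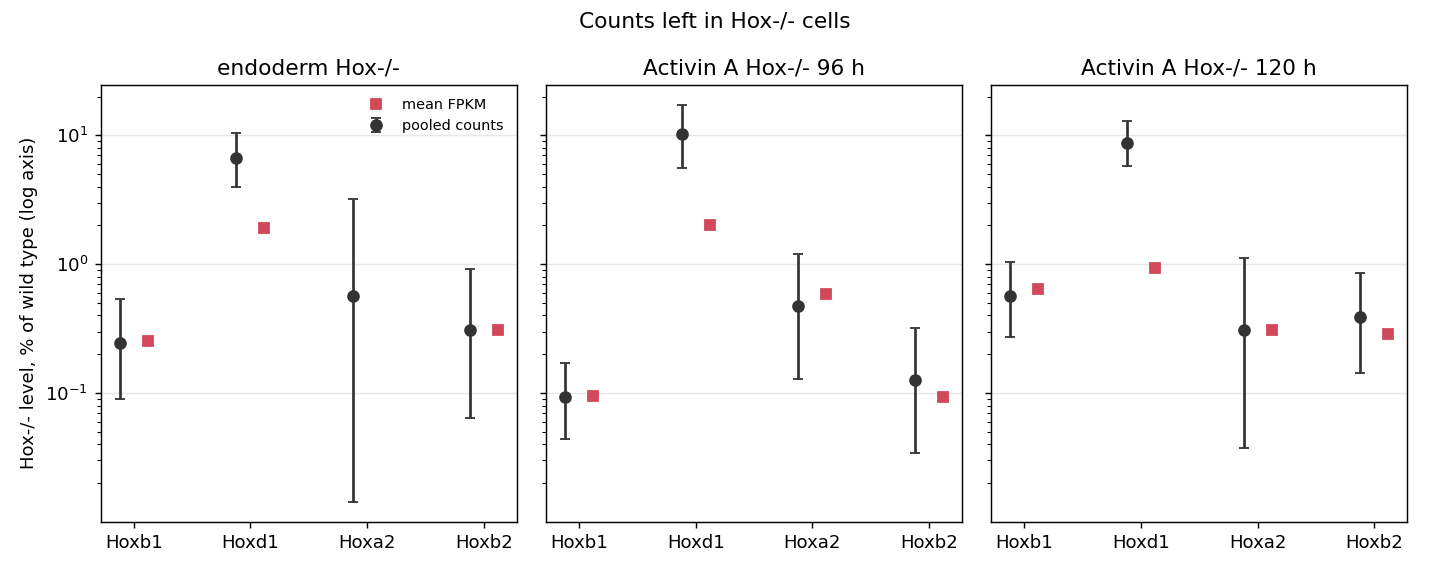
Level in Hox-/- cells as a percentage of wild type on a log axis, for endoderm and for Activin A gastruloids at 96 h and 120 h. Circles are pooled counts with exact 95% intervals and squares are mean FPKM (Hoxa2 in endoderm is listed at 0 and not drawn); Hoxd1 stands at 6.68% to 10.2% by counts and 0.93% to 2.02% by FPKM, and the other genes stand below 1%.

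With Activin A in place of Chiron, at 96 h, Hoxb1 was nearly as high and the other 3 genes were lower. Hoxd1, Hoxa2 and Hoxb2 were called lower in wild-type Activin A gastruloids at 96 h, where 30.2% of 17305 tested genes were called lower, 31.3% higher and 61.6% in either direction. The Hoxd1 difference was -2.28 (log2, SE 0.125, edgeR adjusted p = 1.2e-13), that of Hoxa2 -0.73 (SE 0.0754, 1.31e-08) and that of Hoxb2 -0.42 (SE 0.0531, 3.17e-07). Libraries of the treatments did not overlap for these 3 genes. The Hoxb1 difference of -0.11 (SE 0.0519) missed the threshold (edgeR adjusted p = 0.0635), and without the first Chiron library of 96 h it was -0.13 with an adjusted p of 0.0274. As percentages of the Chiron mean, Hoxb1 stood at 96.7%, Hoxb2 at 78.1%, Hoxa2 at 62.9% and Hoxd1 at 21.3%.

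The remaining Hox genes lay mostly lower on this scale. Among 21 genes of paralog groups 3 to 13 with at least 5 CPM in Chiron gastruloids, the median was 7.03% and the range 0.496% to 71.0%. The median was 10.8% over 7 genes of groups 3 and 4, 6.49% over 7 genes of groups 5 to 7 and 2.77% over 7 genes of groups 8 and 9. Hoxd1 stood below Hoxa3 (43.3%), Hoxa4 (27.75%) and Hoxa5 (71.0%), and Hoxb1 and Hoxb2 stood above all 21. Of all 29 genes of groups 3 to 13 that were tested, whatever their level, 24 were called lower and 0 higher, with a median log2 difference of -3.83 against -0.00121 over all genes. No test set the 4 genes against the others.

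At 120 h the difference between treatments was nearer 0 than at 96 h for Hoxd1, Hoxa2 and Hoxb2 and farther from 0 for Hoxb1. Hoxb1 (-0.36, SE 0.0680, edgeR adjusted p = 0.000175), Hoxa2 (-0.40, SE 0.0937, 0.00145) and Hoxb2 (-0.17, SE 0.0663, 0.0435) were lower with Activin A, where 21.6% of genes were called lower. Hoxd1 was higher (0.42, SE 0.147, edgeR adjusted p = 0.0243), where 20.3% were called higher and 41.9% in either direction. DESeq2 called only Hoxb1 and Hoxa2, with adjusted p of 0.0892 for Hoxd1 and 0.113 for Hoxb2, and leaving out any of the 4 libraries ended the calls of Hoxd1 and Hoxb2 (adjusted p 0.0795 to 0.11 and 0.08 to 0.216). The levels were 80.7% of Chiron for Hoxb1, 139% for Hoxd1, 78.5% for Hoxa2 and 92.2% for Hoxb2, and over 24 genes of groups 3 to 13 the median was 46.7% (17.3% to 106%).

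**Figure D3:**
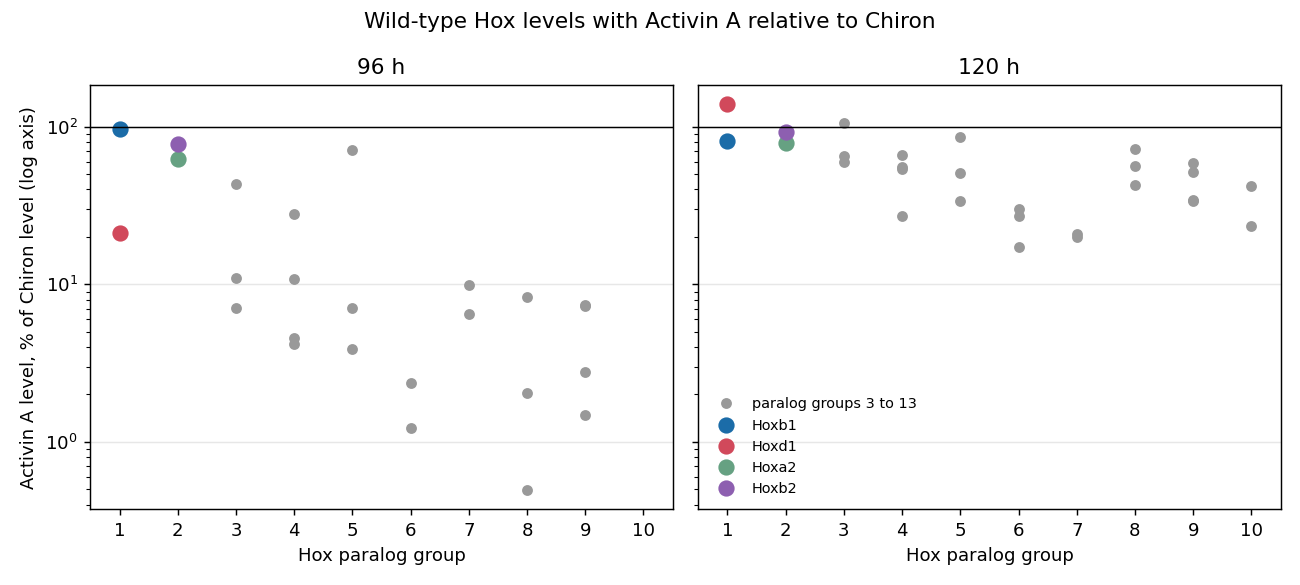
Mean level in wild-type Activin A gastruloids as a percentage of the Chiron mean on a log axis, by Hox paralog group, at 96 h and 120 h, for genes with at least 5 CPM in Chiron gastruloids. Coloured points are the 4 genes and grey points the genes of groups 3 to 13; at 96 h Hoxb1, Hoxb2 and Hoxa2 lie at 62.9% to 96.7% with Hoxd1 at 21.3%, against a grey median of 7.03%, and at 120 h the grey median is 46.7%.

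Markers of other cell states differed between the treatments as well. Of all genes, 31.3% were called higher and 30.2% lower with Activin A at 96 h. At 96 h the sum of 12 presomitic and somitic mesoderm markers was 1930 to 2220 CPM with Chiron and 335 to 350.3 CPM with Activin A, and 12 of 12 were called lower with Activin A. The sum of 10 primitive streak markers was 745 to 815 CPM with Chiron and 2896 to 2956 with Activin A (9 of 10 higher), and that of 13 endoderm markers 207 to 234 and 886 to 1006 CPM (11 higher). Neural progenitor markers summed to 183 to 193 CPM with Chiron and 213 to 219 with Activin A, with Olig2 at 0 in the latter, and 3 of 12 were higher and 8 lower. Neural crest markers summed to 64.0 to 74.0 CPM with Chiron and 122 to 122.4 with Activin A (4 of 11 tested higher, 3 lower), and endothelial and blood markers to 6.72 to 8.05 and 13.8 to 15.7 CPM (3 of 8 tested higher, 2 lower). Pluripotency markers summed to 347 to 434 CPM with Chiron and 1646 to 1666 with Activin A, with 3 of 10 higher and 4 lower. Called counts of the neural crest, endothelial and blood, and pluripotency lists lay near the shares over all genes. The part of these cell states in the levels of the 4 genes was not tested.

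Between 96 h and 120 h Hoxb1 fell steeply in both kinds of wild-type gastruloid, while Hoxd1 moved in opposite directions. With Activin A, Hoxb1 changed by -1.99 (log2, SE 0.0476, edgeR adjusted p = 7.37e-37) and Hoxb2 by -0.43 (SE 0.0553, 2.24e-09), where 37.8% of 16831 genes were called lower. Hoxd1 rose by 1.80 (SE 0.153, 7.02e-15) and Hoxa2 by 0.24 (SE 0.0937, 0.0206), where 37.2% were called higher and 74.9% were called in either direction. The Hoxa2 call was lost in DESeq2 (adjusted p = 0.193) and without the second library of either time (0.139 and 0.126), and limma on log2(FPKM + 1) did not call Hoxb2 (0.0682). With Chiron, Hoxb1 changed by -1.76 (SE 0.0589, edgeR adjusted p = 1.83e-17), Hoxd1 by -0.92 (SE 0.125, 9.92e-07) and Hoxb2 by -0.70 (SE 0.0584, 4e-10), where 33.2% of 17305 genes were called lower and 61.7% in either direction. Hoxa2 missed the threshold there (-0.11, SE 0.0801, 0.222).

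**Figure D4:**
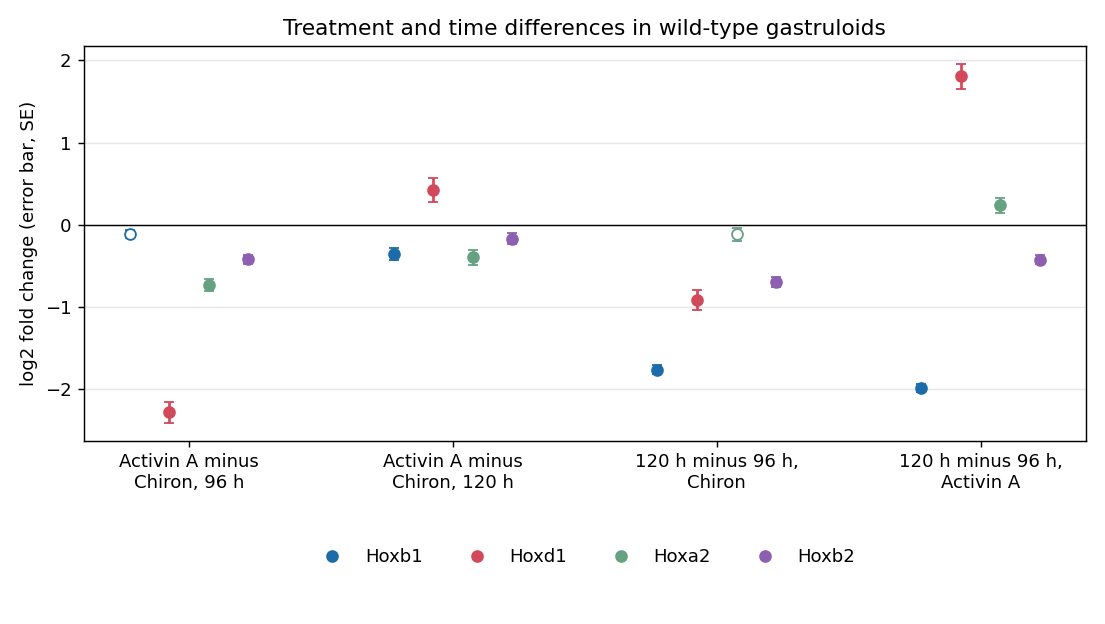
Log2 differences of the 4 genes in wild-type gastruloids, with SE as error bars, for Activin A minus Chiron at each time and for 120 h minus 96 h with each treatment. Filled points passed an adjusted p of 0.05 in edgeR and open points did not; Hoxd1 changes by -0.92 over time with Chiron and 1.80 with Activin A, while Hoxb1 changes by -1.76 and -1.99.

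Later Hox genes rose over the same interval. Of 30 genes of paralog groups 3 to 13 tested in wild-type Activin A gastruloids, 26 were higher at 120 h and 1 was lower, with a median change of 3.55 against 0.000192 over all genes. In Chiron gastruloids 17 of 29 were higher and 7 lower, with a median of 0.66 against -0.0431 over all genes. As a share of the summed CPM of these 34 genes and the 4 described here, Hoxb1, Hoxd1, Hoxa2 and Hoxb2 together made up 78.8% with Activin A at 96 h (78.5% and 79.05% in its libraries) and 17.4% at 120 h. With Chiron they made up 26.6% at 96 h and 10.8% at 120 h, and in endoderm 9.32% (8.58% to 10.2%). The sum of the 4 genes was 414 ± 16.05 CPM (SD, n = 2) with Activin A and 477 ± 16.2 with Chiron at 96 h, while the sum over groups 3 to 13 was 112 ± 7.10 and 1318 ± 34.3. CPM sums give long genes more weight.

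**Figure D5:**
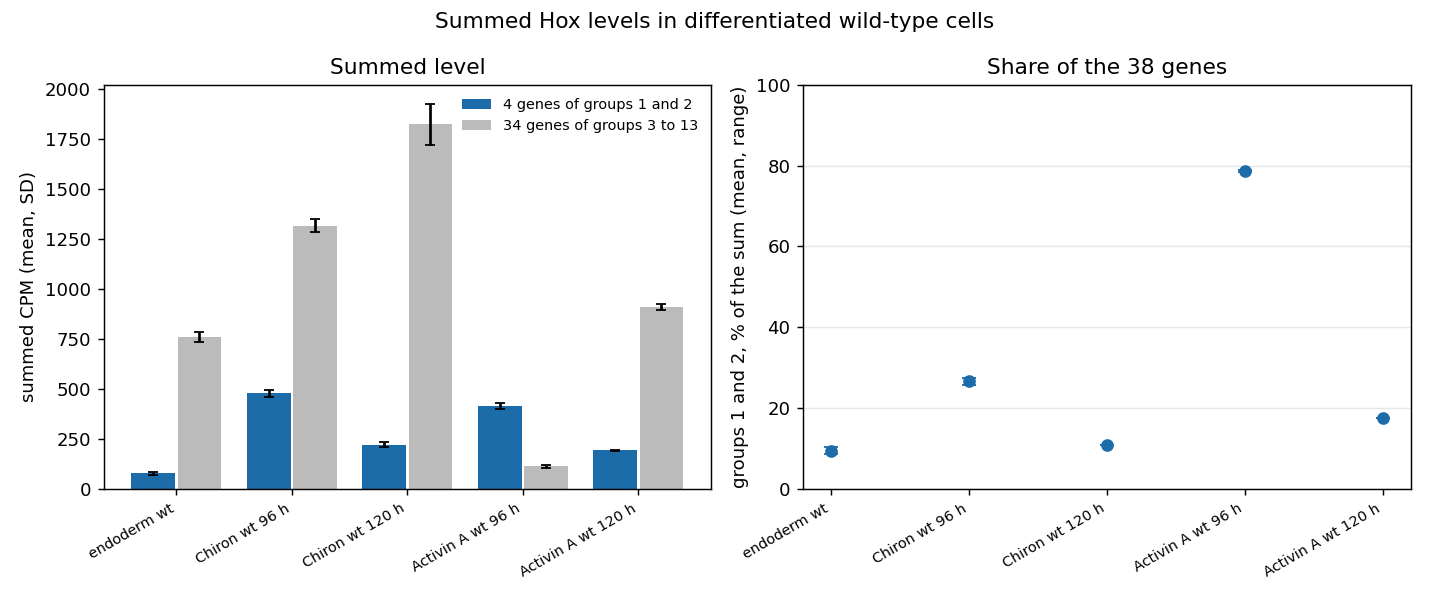
Left, summed CPM (mean, SD) of the 4 genes and of 34 genes of paralog groups 3 to 13 in 5 differentiated wild-type groups. Right, the share of the 4 genes in the total (mean, range over libraries); the share is 78.8% in Activin A gastruloids at 96 h and between 9.32% and 26.6% in the other 4 groups.

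Over time the cell-state markers moved too in wild-type Activin A gastruloids. Of all genes, 37.2% were called higher and 37.8% lower there, and 28.5% and 33.2% over time with Chiron. Primitive streak markers fell from 2896 to 2956 CPM at 96 h to 548 to 553 at 120 h (9 of 10 called lower), and pluripotency markers from 1646 to 1666 to 96.3 to 96.6 (9 of 10 lower). Of 11 neural progenitor markers tested 9 were higher at 120 h and 2 lower, although their sum changed little (213 to 219 CPM, then 233 to 236). Presomitic and somitic markers went from 335 to 350.3 CPM to 614 to 624 (8 of 12 higher, 4 lower). Endothelial and blood markers went from 13.8 to 15.7 CPM to 49.9 to 53.6 (5 of 8 tested higher, 0 lower). With Chiron, primitive streak markers went from 745 to 815 CPM to 205 to 231 (8 of 10 lower). Presomitic and somitic markers went there from 1930 to 2220 CPM to 1180 to 1213 (4 of 12 higher, 8 lower). The part of these shifts and of sequencing depth in the changes of the 4 genes was not tested.

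Whether the time change depended on treatment was tested as an interaction. The Activin A time change minus the Chiron time change was 2.703 for Hoxd1 (log2, SE 0.196, edgeR adjusted p = 9.88e-11), 0.33 for Hoxa2 (SE 0.121, 0.0315), 0.25 for Hoxb2 (SE 0.0850, 0.0207) and -0.24 for Hoxb1 (SE 0.0856, 0.0269). All 4 passed the threshold, where 39.6% of genes were called. DESeq2 called Hoxd1 and Hoxb1 only (adjusted p 0.161 for Hoxa2 and 0.118 for Hoxb2), and the calls of Hoxa2, Hoxb2 and Hoxb1 were each lost when single libraries were left out, with Hoxd1 called each time.

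In Hox-/- Activin A gastruloids only Hoxd1 was called over time (1.62, SE 0.440, edgeR adjusted p = 0.00104, from 15 pooled counts at 96 h and 29 at 120 h; 34.9% of genes called higher and 37.6% lower). In FPKM it was not called (limma on log2(FPKM + 1), 0.04, adjusted p = 0.83). Its Hox-/- means were 0.0423 FPKM at 96 h and 0.0696 at 120 h. Both lie far below the added 1, so that fit could show almost no change and cannot decide. The genotype difference of Hoxb1 changed with time by 2.66 (SE 0.651, edgeR adjusted p = 0.000862), where 38.9% of genes were called in either direction, 18.7% higher and 20.2% lower. Hox-/- libraries held 4 to 6 counts of Hoxb1 at both times, with means of 0.274 CPM at 96 h and 0.449 at 120 h. The wild-type change was -1.99 (SE 0.0476). The Hox-/- change was 0.67 (SE 0.603) and was not called (edgeR adjusted p = 0.335). The interactions of Hoxd1 (adjusted p = 0.828), Hoxa2 (0.775) and Hoxb2 (0.135) missed the threshold in edgeR. On log2(FPKM + 1), limma called that of Hoxd1 (-1.42, adjusted p = 0.00184). That value holds almost only the wild-type change, since the Hox-/- FPKM lay far below the added 1.

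The neighbours of the 4 genes were followed because their transcripts lie close by. Haglr, the antisense RNA gene that starts next to Hoxd1, had the same signs as Hoxd1 in the wild-type gastruloid comparisons. It was lower with Activin A at 96 h (-1.77, SE 0.125), higher with Activin A at 120 h (0.48, SE 0.144), higher over time with Activin A (1.71, SE 0.165) and lower over time with Chiron (-0.56, SE 0.127), all called by edgeR. Its levels were 11.9 and 8.68 CPM with Chiron and 3.64 and 12.6 CPM with Activin A at 96 h and 120 h. Hoxb3os, the antisense gene that overlaps Hoxb2, went the other way from Hoxb2 over time with Activin A (1.29, SE 0.0530) and in the treatment comparison at 120 h (0.93, SE 0.0736), with both called. In the treatment comparison at 96 h (-0.59, SE 0.0675) and over time with Chiron (-0.24, SE 0.0718) it was lower, as Hoxb2 was. Hotairm1, the RNA gene beside Hoxa2, rose over time with Activin A (1.04, SE 0.1205) and did not pass the test with Chiron (0.07, SE 0.1275). Hoxd3 and Hoxd4, the next coding genes of the Hoxd cluster, rose by 3.97 (SE 0.0822) and 4.89 (SE 0.0928) over time with Activin A, and Hoxb3 by 2.89 (SE 0.0748), while Hoxa3 rose by 0.40 (SE 0.0789).

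Of the 13 neighbours, 12 were lower and 0 higher with Activin A at 96 h, with a median of -1.26 against -0.00121 over all genes. In Hox-/- cells the neighbours split by place. Hoxb3, Hoxb3os, Hoxa3, Hoxaas2, Hotairm1, Hoxd3, Hoxd4, Haglr and Gm53 were lower in endoderm and in gastruloids of both times. No fold is given for them, since several were at 0 in Hox-/- libraries. The genes beyond the clusters on the sides of the 4 genes were higher, with Skap2 at 1.14 (SE 0.0510) in endoderm, 1.13 (SE 0.0448) at 96 h and 0.85 (SE 0.0549) at 120 h, Mtx2 at 0.15, 0.28 and 0.22 and Hnrnpa3 at 0.15, 0.18 and 0.48. Skap1 fell in endoderm (-0.95, SE 0.268) and missed the threshold in both gastruloid comparisons.

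Genes of hindbrain segmentation, including regulators and reported targets of these Hox genes, were split between higher and lower with Activin A at 96 h. At 120 h more were higher than lower. With Activin A at 96 h, 10 of 25 tested were higher and 10 lower, with a median of 0.52 against -0.00121 over all genes, of which 31.3% were called higher and 30.2% lower. Otx2, a forebrain and midbrain gene, was higher by 5.79 (SE 0.135), and Fgf8, a signal of the midbrain-hindbrain boundary and of the primitive streak, by 1.18 (SE 0.0560). Fgf3, a signal made by the fourth rhombomere, was lower at -2.21 (SE 0.0865), and Zfp503 at -1.004 (SE 0.0508). Egr2, a regulator of odd-numbered rhombomeres, reached at most 1.43 ± 0.109 CPM (SD, n = 2), in wild-type Activin A gastruloids at 96 h. Over time with Activin A 13 of 24 rose and 8 fell, where 37.2% of all genes were called higher, 37.8% lower and 74.9% in either direction. Gbx2, a gene of the anterior hindbrain, was among those that fell (-1.998, SE 0.0760). At 120 h with Activin A 15 of 25 were higher than with Chiron and 5 lower, against 20.3% and 21.6% of all genes. With Chiron over time 8 of 25 rose and 11 fell, against 28.5% and 33.2% of all genes.

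In Hox-/- cells hindbrain genes split 7 lower to 6 higher among 23 tested in endoderm. Among 24 tested, 10 were lower at 96 h, where 4 were higher, and 13 were lower at 120 h, where 5 were higher (medians -0.00697, -0.38 and -0.78, against 0.00173, 0.0348 and -0.0205 over all genes). Over all genes 46.2%, 38.9% and 50.4% were called in these comparisons. The shares lower and higher were 23.1% and 23.1% in endoderm, 16.7% and 22.2% at 96 h, and 25.5% and 24.9% at 120 h. Otx2 was lower in all 3 comparisons (-1.51, -4.08 and -3.63). Epha4, an Eph receptor of the odd-numbered rhombomeres, was lower in endoderm (-0.74, SE 0.0690) and at 96 h (-0.32, SE 0.0501) and higher at 120 h (1.61, SE 0.0594). Endoderm markers were lower beside them, with 13 of 13 called in endoderm, 12 of 13 at 96 h and 11 of 13 at 120 h. At 120 h they summed to 1042 to 1047 CPM in wild-type libraries and to 205 to 212 CPM in the others. Presomitic and somitic markers went from 614 to 624 CPM in wild type to 1634 to 1650 in Hox-/- at 120 h (10 of 12 higher). In endoderm they went from 114 to 134 CPM to 69.5 to 75.8, with 1 of 7 tested higher and 5 lower. At 96 h 3 of 12 were higher and 3 lower. Neural progenitor markers summed to 233 to 236 CPM in wild type and 142 to 146 in Hox-/- at 120 h, with 8 of 11 tested lower and 2 higher. At 96 h they summed to 213 to 219 and 267 to 270 CPM, with 1 of 11 lower and 5 higher. In endoderm 2 of 6 tested were lower and 3 higher. Pluripotency markers were lower in Hox-/- endoderm (10 of 10, from 890 to 1025 CPM to 271 to 284). At 96 h 7 of 10 were lower and 1 higher (from 1646 to 1666 CPM to 1157 to 1161). At 120 h 7 of 10 were lower and 2 higher (from 96.3 to 96.6 CPM to 35.7 to 36.4). Endothelial and blood markers at 120 h went from 49.9 to 53.6 CPM to 76.7 to 79.1, with 5 of 8 tested higher and Hbb-bh1 at 0 in both genotypes. At 96 h 0 of 8 tested were higher and 2 lower. In endoderm they summed to 52.7 to 64.9 and 86.8 to 90.2 CPM, with 1 of 6 tested higher and 3 lower. The part of these cell-state differences in the hindbrain genes was not tested.

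Of 20 retinoic acid pathway genes tested, 12 were lower and 3 higher with Activin A at 96 h. The shares over all genes were 30.2% and 31.3%. The pathway had a median of -0.49 against -0.00121 over all genes. The lower genes included Aldh1a2, which makes retinoic acid (-2.75, SE 0.0927), the binding protein gene Crabp1 (-3.78, SE 0.0798), the transporter gene Stra6 (-2.58, SE 0.0681) and the receptor gene Rarb (-2.61, SE 0.220). Cyp26a1, which breaks retinoic acid down, differed by -0.19 (SE 0.0514), and Rdh10, which acts before Aldh1a2 in synthesis, was higher (1.78, SE 0.0731). At 120 h 11 of 20 were higher with Activin A and 5 lower, against 20.3% and 21.6% of all genes, with Aldh1a2 at 1.71 (SE 0.117) and Cyp26a1 at 2.22 (SE 0.0693). Over time Aldh1a2 and Crabp1 moved in opposite directions with the treatments. Aldh1a2 rose by 1.07 (SE 0.0546) with Activin A and changed by -3.41 (SE 0.107) with Chiron, and Crabp1 by 3.06 (SE 0.0566) and -2.53 (SE 0.0782). Of the pathway, 14 of 19 rose and 5 fell with Activin A, and 6 of 20 rose and 10 fell with Chiron. Over all genes 37.2% rose and 37.8% fell with Activin A, and 28.5% rose and 33.2% fell with Chiron.

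Between genotypes 8 of 18 retinoic acid genes were higher in Hox-/- endoderm and 5 lower. Among 19 tested in gastruloids, 3 rose and 10 fell at 96 h, while 9 rose and 8 fell at 120 h. Over all genes 46.2% (endoderm), 38.9% (96 h) and 50.4% (120 h) were called. The shares higher and lower were 23.1% and 23.1% in endoderm, 22.2% and 16.7% at 96 h, and 24.9% and 25.5% at 120 h. Cyp26a1 was lower in all 3 (-0.87, -1.9995 and -1.82). Aldh1a2 was lower in endoderm (-1.08, SE 0.206) and at 96 h (-1.55, SE 0.0685) and higher at 120 h (1.27, SE 0.0493), with means at that time of 122 CPM (wild type) and 273 CPM (Hox-/-). Rarb was lower at 120 h (-1.48, SE 0.127).

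The 9 Pbx, Meis and Pknox genes, whose products bind DNA together with Hox proteins, were all tested in endoderm and gastruloids. Meis1 had the largest treatment difference of the 9 at 96 h but not at 120 h. It stood at 26.3 CPM with Chiron and 1.44 CPM with Activin A at 96 h, and at 62.3 and 65.6 CPM at 120 h. Meis1 was lower with Activin A at 96 h (-4.24, SE 0.174), did not pass the test at 120 h (0.03, SE 0.103) and rose over time by 5.44 (SE 0.116) with Activin A and by 1.156 (SE 0.103) with Chiron. Meis2 stood at 109 CPM with Activin A and 165 CPM with Chiron at 96 h (-0.65, SE 0.0699). At 120 h Meis3 differed most (1.07, SE 0.0819). In Hox-/- cells 4 cofactors rose and 2 fell in endoderm, 2 rose and 4 fell at 96 h, and 6 rose and 2 fell at 120 h, with Pknox2 higher in all 3 (1.01, 1.12 and 0.53). Of all genes 46.2%, 38.9% and 50.4% were called there. The shares higher and lower were 23.1% and 23.1% in endoderm, 22.2% and 16.7% at 96 h, and 24.9% and 25.5% at 120 h.

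Among genes outside the Hox family, those whose level over the 13 wild-type libraries was most like each of the 4 were listed by Pearson correlation of log2(CPM + 1), over 11476 genes. For Hoxb1 they were Rpl15 (r = 0.993), Arid3b (0.993) and Atrnl1 (0.991), for Hoxd1 Zdhhc20 (0.988), Myo5a (0.987) and Hipk2 (0.985), for Hoxa2 Isoc1 (0.994), 5730596B20Rik (0.994) and Tspyl4 (0.994), and for Hoxb2 Zfp503 (0.996), Sema6a (0.995) and E2f6 (0.993). The measure follows the shape and not the size of change, since Rpl15, a ribosomal protein gene, ran only from 596 CPM in mES cells to 874 CPM in Activin A gastruloids at 96 h. Zfp503, also a member of the hindbrain list, stood at 0.199 CPM in mES cells, 29.2 in endoderm, 184 and 122.5 with Chiron at 96 h and 120 h, and 95.9 and 94.0 with Activin A. Between the 4 genes themselves r ran from 0.832 (Hoxb1 and Hoxd1) to 0.976 (Hoxb1 and Hoxb2). The points share libraries, and all of these genes have their lowest mean in mES cells, so the values are descriptions.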

How the data were processed

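Poly(A) RNA was made into stranded libraries, per the labels' protocols. The submitters' processing notes name cutadapt 1.16, STAR 2.7.7a and Cufflinks 2.2.1 and the build mm10; the counting tool and its use of strand are not given in the sources used here. The authors deposited whole-number counts per Ensembl gene, not normalized. FPKM, which scale fragments to gene length and library size, were deposited by the authors beside gene symbols and positions. The 8 tables were joined by gene ID, and 0 columns belonged to other samples.

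CPM are counts over the library total, as mean ± SD. Counts were tested in edgeR 4.0.16 (R 4.3.3; filterByExpr, TMM, quasi-likelihood, 1 coefficient per group, Benjamini-Hochberg adjustment over all tested genes) in 14 contrasts. Each table was fitted over all its groups, and mES and endoderm libraries jointly where compared. The tests were tested on simulated data. Alternatives used DESeq2 1.42.0, limma 3.58.1 on log2(FPKM + 1) or log2(FPKM + 0.1), other scalings and filters, a replicate block and left-out libraries.

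The 4 genes and the lists (hindbrain segmentation, retinoic acid pathway, Hox cofactors, neighbours, and 7 marker lists: pluripotent cells, neural progenitors, neural crest, primitive streak, endoderm, presomitic and somitic mesoderm, endothelium and blood) were chosen with earlier results of these data known. Znf503, Nlz2 and Znf703 were read as their mouse symbols Zfp503 and Zfp703. Named genes are the 4 genes, the 3 most alike non-Hox genes each, the neighbours, and up to 6 called list genes per contrast with the smallest p. Other genes named (the Hox genes in percentages of Chiron, Egr2, Cyp26a1, Meis2, Zfp503, Rdh10, Rarb and Hotairm1 in some contrasts) were chosen after their values were seen. Some list genes enter the counts but are not reported here by name.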

Additional observations from a re-analysis of the deposited data

Results flagged for a closer look

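Differences between effects that passed an edgeR interaction test are listed here as values. The time change of wild-type gastruloids differed between Activin A and Chiron for Hoxd1 by 2.703 (log2), for Hoxa2 by 0.33, for Hoxb2 by 0.25 and for Hoxb1 by -0.24. The genotype difference of Hoxb1 differed between 120 h and 96 h by 2.66. The genotype difference also differed between endoderm and mES cells, by -9.06 for Hoxb1 (adjusted p = 0.000286) and -10.64 for Hoxb2 (adjusted p = 0.0248), where 24.1% of genes were called. These last values rest on mES libraries with at most 4 counts. Hoxb1 was no longer called without the second Hox-/- mES library (-4.73, adjusted p = 0.989) and Hoxb2 was no longer called without the first (-8.13, adjusted p = 1).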

How the results depend on the processing

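Of the counts of called genes among the 4, those of the 3 differentiated genotype comparisons, the treatment comparison at 96 h and the time comparison with Chiron stayed within 1.5 times of the reported count under the alternatives run. The count for time in wild-type Activin A gastruloids went from 4 to 2 under limma on log2(FPKM + 0.1). For time in Hox-/- gastruloids it went from 1 to 0 under log2(FPKM + 1) and to 2 under log2(FPKM + 0.1), and for genotype by time from 1 to 2 and 3. For Activin A against Chiron at 120 h it went from 4 to 2 under DESeq2 and under log2(FPKM + 1), and to 2 without any single library. For treatment by time it went from 4 to 2 under DESeq2 and ranged from 2 to 3 with libraries left out. For genotype by culture it went from 2 to 1 without either Hox-/- mES library. Of the 12 genes most like the 4, 4 stayed with a pseudocount of 0.1 and 0 with Spearman's rho. Reversed signs were all in edgeR values at few Hox-/- counts that edgeR did not call, with all libraries or with the one left out. With libraries left out, Hoxa2 ranged from -1.51 to 3.65 over time in Hox-/- gastruloids and from -1.74 to 3.42 for genotype by time, both positive without the second Hox-/- library of 96 h. For genotype by time Hoxd1 ranged from -0.49 to 0.43, positive without the first. In Hox-/- endoderm against mES cells Hoxb1 ranged from -1.51 to 3.89 and Hoxb2 from -0.35 to 2.97, with reversed signs without the second mES library, and Hoxa2 from 0 to 2.14. The cause was not tested.

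Replicate numbers did not pair the libraries (correlations of deviations -0.0701 to 0.106). With the number as a replicate block, no call of the 4 genes changed, and the Hoxb1 genotype difference in endoderm was -8.57. A minimum of 10 counts in every library removed the 4 genes from the genotype comparisons, and the FPKM fits were not run across the mES and endoderm tables. Depth limits all Hox-/- and mES values, which rest on 0 to 17 counts per library.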
